A study of Mus musculus with 14 samples.

Results

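The 10 genes described here mark the stromal progenitor cells of adipose tissue, and were chosen by symbol from the 23282 genes of the count table: Pdgfra, Pdgfrb, Pi16, Dpp4, Cd34, Cd248, Ly6a, Ly6c1, Fap and Zfp423. All 10 were present in the table, and all 10 passed the filter on low counts in each comparison. The libraries were made from the epididymal white adipose tissue (eWAT) of male C57BL/6J mice, wild type and 4 weeks old at purchase, by QuantSeq 3′ mRNA sequencing, which reads transcripts near their poly(A) tail. The control group was fed a normal diet and the WD group a Western diet rich in fat and cholesterol, each for 20 weeks. The labels divide the 14 libraries into batch 1, with controls 1 to 4 and WD 1 to 5, and batch 2, with controls 5 to 9 only. Diet can therefore be compared within batch 1, whereas in WD against the batch 2 controls diet and batch cannot be told apart.

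Fat pads hold, besides adipocytes, a stromal and vascular fraction from which new adipocytes and matrix-producing fibroblasts arise. PDGFRα marks these progenitors broadly, and PDGFRβ is shared with the mural cells around vessels. Cells with Pi16 and Dpp4 are regarded as the least committed, interstitial progenitors, and they can give rise to committed preadipocytes. Cd34, Ly6a (Sca-1) and Ly6c1 are also made by endothelial cells, so that they are less specific in whole tissue. In bulk RNA, fewer cells of a type and less RNA per cell cannot be told apart.

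Totals ranged from 10278970 to 13712254 counts per library. A floor of 3 counts, below which no level was read, lay at 0.219 to 0.292 CPM (counts scaled to a common library total). This floor was scaled by the library total alone, whereas CPM levels and sums were scaled by the total times its TMM factor. The factors ran from 0.77 in control 1 to 1.12 in control 4, so the floor and the levels differ in scale. Levels on the log2 scale are the deposited log2(CPM + 1) values after TMM normalization. A pair of batch 1 controls stood apart. Control 1 carried the 8 epididymis markers at a summed 34706 CPM, against 0 to 13.3 CPM in the WD libraries and 0.0706 to 5.59 CPM in the batch 2 controls, and its 8 adipocyte markers summed to 4993 CPM, the lowest of the batch 1 controls. Control 4 had counts for 7999 genes, against 10903 to 13780 in the other libraries. Of the 8357 genes counted in all 13 other libraries, 21.01% were at 0 in control 4. The 9 pan-stromal genes summed to 2350 to 8338 CPM across the libraries, and none of the 9 was at 0 outside the batch 1 controls. Their lowest sum was in control 1, where the 10 progenitor genes summed to 495 CPM. The lowest sum of the 10 was in control 4, at 279 CPM beside 5845 CPM for the pan-stromal genes. Whether the 10 genes follow the stromal content of a library was not tested.

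By mean level over the 14 libraries, Cd34 was highest at 156 ± 46.8 CPM (SD, n = 14), followed by Ly6a at 109 ± 35.4 and Ly6c1 at 101 ± 43.0 CPM. Next came Zfp423 at 32.8 ± 12.2 and Pdgfra at 25.5 ± 20.3 CPM. Pi16 (13.6 ± 8.13 CPM), Cd248 (13.1 ± 8.93 CPM), Dpp4 (11.02 ± 8.75 CPM) and Pdgfrb (10.004 ± 7.75 CPM) lay close together, and Fap was lowest at 3.65 ± 3.28 CPM. Among neighbours in this order, Ly6c1 and Zfp423 were further apart than the larger of their SDs, Cd34 and Ly6a were apart by about the larger SD, and the other neighbours lay closer than that. Because reads come from the 3′ end, these levels do not grow with transcript length and were not divided by it. Spread was smaller for the most abundant genes but did not follow the order throughout. Within batch 1, the biological coefficient of variation estimated by edgeR was 0.389 for Ly6a and 0.408 for Cd34. It was 0.892 for Pdgfrb, 1.22 for Pi16, 1.38 for Dpp4 and 1.66 for Fap. Control 4 was at 0 counts for Pi16, Dpp4 and Fap. In WD against the batch 2 controls, the coefficients were 0.260 for Ly6a, 0.287 for Cd34, 0.570 for Pi16, 0.841 for Dpp4 and 1.12 for Fap.

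**Figure D1:**
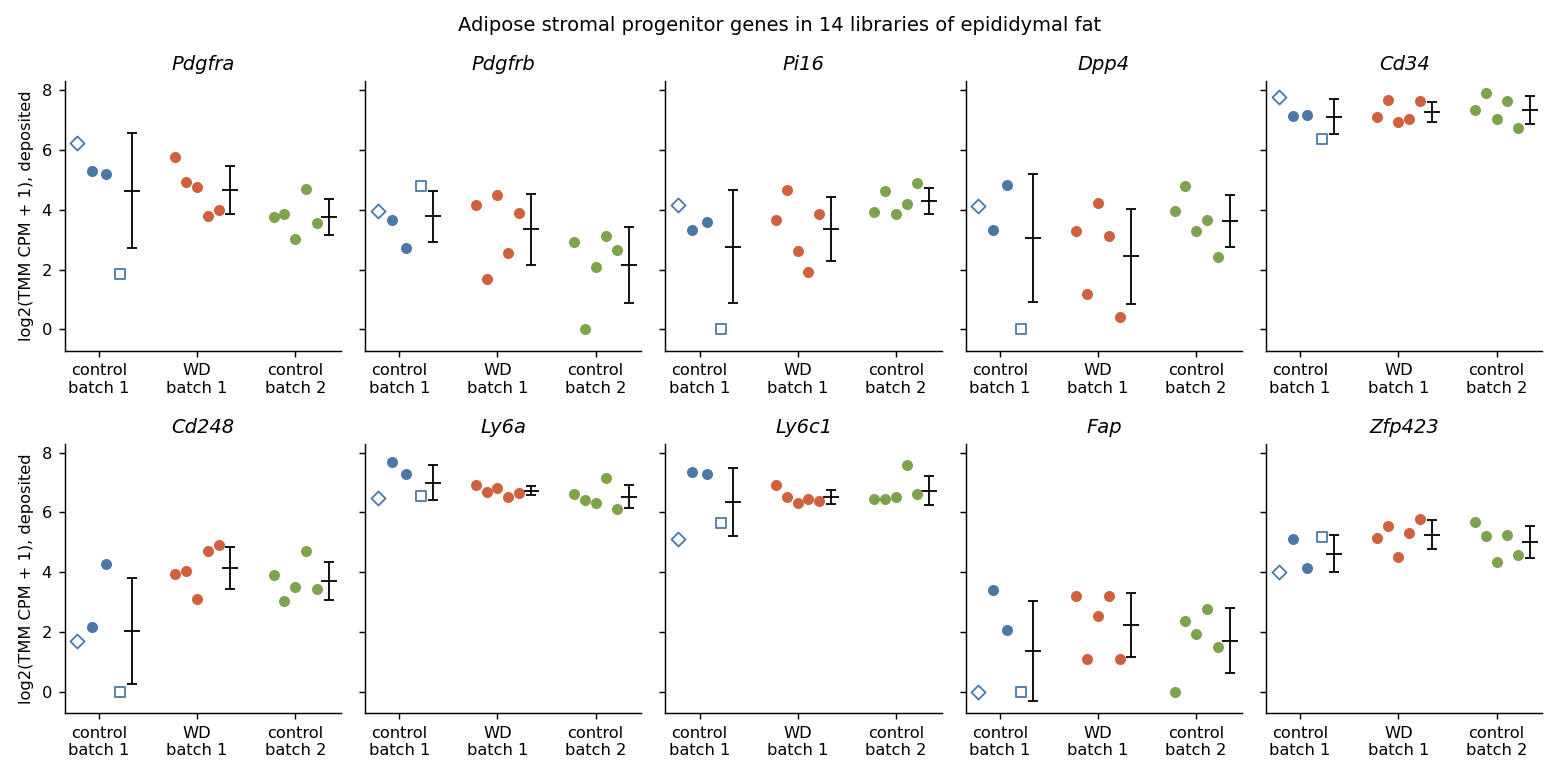
Deposited log2(TMM CPM + 1) of each of the 10 genes in the 14 libraries, with the mean and SD of each group beside its points. Open diamonds are control 1 and open squares control 4; control 4 lies at 0 for Pi16, Dpp4, Cd248 and Fap, and no gene has groups that do not overlap.

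To assess the effect of diet, WD libraries were first compared with the controls of their own batch. None of the 10 genes passed the test. By edgeR's quasi-likelihood test with Benjamini-Hochberg adjustment over 12157 genes, 0 of 10 passed an FDR of 0.05, every adjusted p was 1.00, and the share called over all genes was 0%. At an unadjusted p under 0.05 there were 0 of 10, against 5.17% of all genes, and DESeq2 and limma-voom also called 0. In no gene were the diet groups free of overlap, against 3.87% of all genes. The estimates were 5 up and 5 down, with a median log2 fold change of -0.01 (0.03 over all genes tested). The precision differed widely between genes. For Cd34 the 95% interval of the log2 difference was -0.63 to 0.83 and for Ly6a -1.02 to 0.31, whereas for Fap it was -3.28 to 4.41. These intervals give the changes compatible with the counts and are not limits of detection.

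Against the batch 2 controls, 773 of 12070 genes passed an FDR of 0.05 (6.4%), with 3.93% of all genes higher and 2.48% lower in WD. Again 0 of the 10 progenitor genes passed by edgeR, DESeq2 or limma-voom. Pdgfra alone had an unadjusted p under 0.05, as did 17.7% of all genes. None of the 10 was free of overlap between the groups, against 8.79% of all genes. Their median log2 fold change was 0.20, with 6 positive and 4 negative values, beside a median of -0.003 over all genes. Between the control batches, which share the diet, edgeR called 0 of 10 genes and 0% of 12106 genes. Unadjusted p under 0.05 were 0 of 10 against 7.39% of all genes, and DESeq2 and limma-voom called 0 of 10. Groups free of overlap were 0 of 10 against 5.29%. The 3 comparisons share libraries, and their values are given side by side for each gene.

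**Figure D2:**
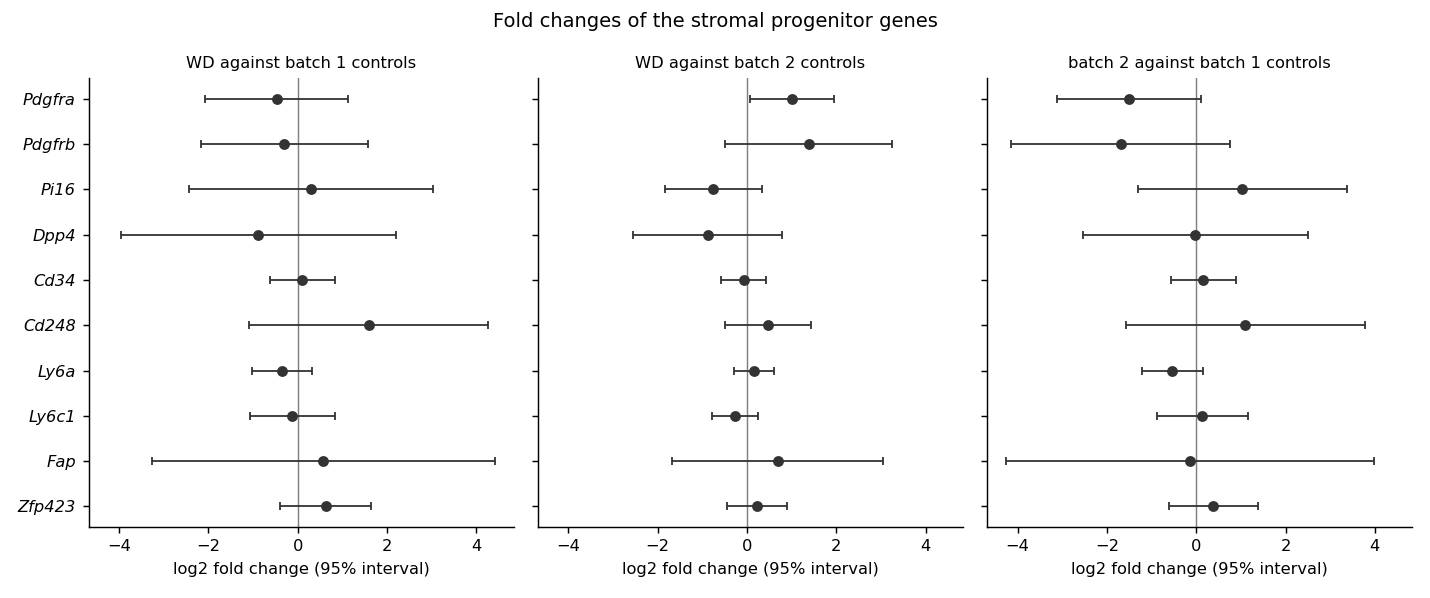
Log2 fold changes of the 10 genes with 95% intervals from edgeR's quasi-likelihood fits, for WD against batch 1 controls, WD against batch 2 controls and batch 2 against batch 1 controls. The interval leaves out 0 only for Pdgfra in WD against batch 2 controls, at 0.07 to 1.94.

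Pdgfra (chr5:75152291-75198204 in mm10, plus strand) encodes the receptor for PDGF-A and PDGF-C that defines adipose progenitors. In the batch 1 controls it was counted 707, 453, 424 and 35 times, in order of library number. The WD libraries held 761, 278, 361, 159 and 177 counts. The batch 2 controls held 175, 140, 93, 320 and 107 counts. On the log2 scale control 4 was the lowest of all 14 libraries at 1.855, and control 1, with its epididymal RNA and few adipocyte transcripts, was the highest at 6.22. The WD libraries lay between them, so the diet groups overlapped. Mean log2 levels were 4.64 ± 1.91 (SD, n = 4) in batch 1 controls, 4.64 ± 0.80 (n = 5) in WD and 3.77 ± 0.60 (n = 5) in batch 2 controls. The log2 fold change in WD was -0.47 (SE 0.74) within batch 1, and this sign was not stable, since limma-voom gave 0.43. Against batch 2 it was 1.01 (SE 0.44), with an unadjusted p of 0.0363 and an adjusted p of 0.237 by edgeR, and 3 of 5 WD libraries lay above all batch 2 controls. Between the control batches, batch 2 against batch 1, the log2 fold change was -1.50 (SE 0.74, adjusted p of 0.712 by edgeR). Without controls 1 and 4, the values within batch 1 and between the control batches were -0.41 and -1.43. The latter, between controls of the same diet, had an unadjusted p of 0.00823 and an adjusted p of 0.209 by edgeR.

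Pdgfrb, the receptor for PDGF-B, had 138, 137, 68 and 361 counts in the batch 1 controls. In WD there were 238, 21, 295, 61 and 163 counts. The batch 2 controls had 92, 0, 43, 100 and 52 counts. The highest library was control 4, the library in which Pdgfra was lowest. Control 6 had no count, which allows up to 0.292 CPM when scaled by the library total alone. The ratio of Pdgfrb to Pdgfra counts was 10.3 in control 4 and between 0 and 0.921 in all other libraries. Log2 fold changes in WD were -0.30 (SE 0.86) within batch 1 and 1.38 (SE 0.89) against batch 2, where 3 of 5 WD libraries exceeded every control. Neither passed the test. Without controls 1 and 4, the difference within batch 1 turned to 0.47. The 8 mural cell markers, among them Rgs5 and Notch3, summed to 314 CPM in control 4, against 253 to 397 CPM over the batch 1 controls and 180 to 323 CPM in WD, and 1 of the 8 was at 0 there. Their part in the Pdgfrb level was not tested.

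**Figure D3:**
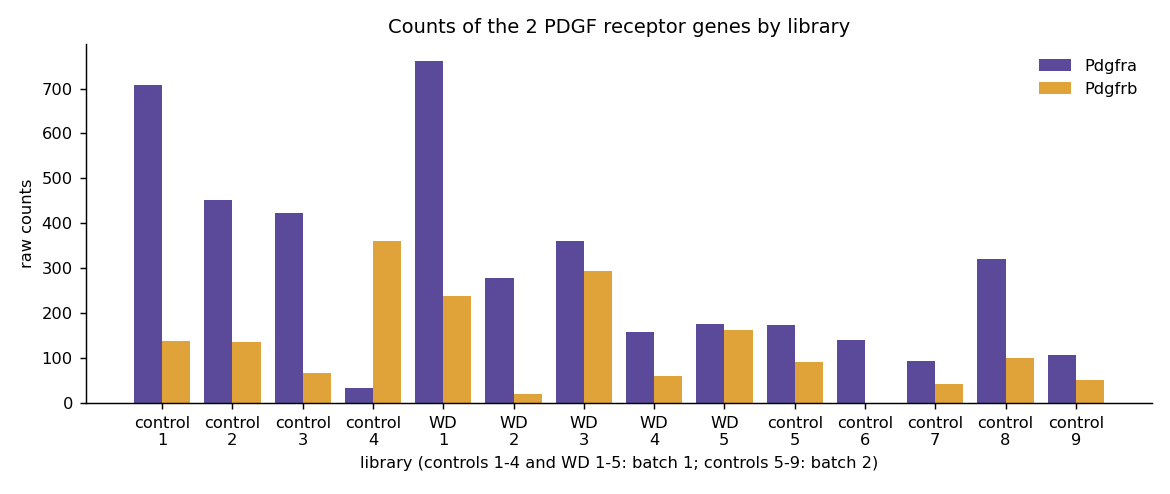
Raw counts of Pdgfra and Pdgfrb in each library, from 0. In control 4 Pdgfrb exceeds Pdgfra (361 against 35 counts), and in the other 13 libraries Pdgfra exceeds Pdgfrb.

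Of the ligands of these receptors, Pdgfc had the highest mean level. It was 13.9 CPM in batch 1 controls, 18.7 CPM in WD and 20.6 CPM in batch 2 controls. Pdgfa, a ligand of PDGFRα, had 0 to 121 counts in the batch 1 controls, 0 to 170 in WD and 35 to 151 in batch 2 controls. Pdgfb, the ligand released by endothelial cells, had medians of 18, 18 and 12 counts in the same order, and 251 counts in 1 batch 1 control. Pdgfc had medians of 172.5, 214 and 188 counts. Pdgfd was not counted in any batch 1 control and reached 32 counts in WD. Of the 4 ligands, 0 passed the test within batch 1 (3 tested) or against batch 2 (4 tested), and no ligand had an unadjusted p under 0.05 in either.

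Pi16 (chr17:29318882-29328902, plus strand) encodes peptidase inhibitor 16, a marker of interstitial progenitors. The batch 1 controls held 160, 107, 134 and 0 counts. WD libraries held 164, 229, 71, 35 and 161. The batch 2 controls held 198, 244, 177, 227 and 283 counts and were the most even group, with a highest CPM 2.13 times the lowest. In WD that ratio was 8.87. Mean log2 levels were 2.77 ± 1.88 (n = 4), 3.34 ± 1.07 (n = 5) and 4.29 ± 0.45 (n = 5) in batch 1 controls, WD and batch 2 controls. The log2 fold change in WD was 0.29 (SE 1.26) within batch 1 and -0.76 (SE 0.51, adjusted p of 0.525 by edgeR) against batch 2, where 3 of 5 WD libraries lay below all controls. Neither passed the test. The batch 2 controls exceeded the batch 1 controls by 1.03 (SE 1.07), also without passing.

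Dpp4 (chr2:62330073-62412231, minus strand) encodes the surface peptidase CD26, the other marker of the interstitial cells, and is made by T cells too. Batch 1 controls had 156, 106, 326 and 0 counts. WD libraries had 125, 12, 242, 97 and 4 counts. Batch 2 controls had 202, 278, 117, 152 and 43 counts. WD 2 and WD 5 were lower than every library but control 4, although Pi16 was at 229 and 161 counts in these animals. Fold changes were negative in WD on both sides, at -0.88 (SE 1.42) within batch 1 and -0.87 (SE 0.79) against batch 2, with adjusted p of 1.00 and 0.677 by edgeR. Within batch 1 limma-voom gave 0.28. The 7 measured T cell markers summed to 7.40 to 37.97 CPM in WD, 0 to 8.32 CPM in batch 1 controls and 1.95 to 8.76 CPM in batch 2 controls, with Cd3e at 0 counts in every batch 1 control. Their part in the Dpp4 level was not tested.

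Fap lies near Dpp4 on the same strand (chr2:62500936-62574021) and encodes fibroblast activation protein, a related peptidase of activated fibroblasts. It was counted 0, 114, 39 and 0 times in the batch 1 controls. WD libraries had 116, 11, 67, 104 and 14 counts. Batch 2 controls had 0, 44, 37, 77 and 18 counts. Fap had a count in all 5 WD libraries and was at 0 in 3 of the 9 controls. Scaled by the library total alone, this allows up to 0.249 CPM in control 1, 0.243 CPM in control 4 and 0.219 CPM in control 5. The highest value on the log2 scale was nonetheless in control 2, at 3.41. The log2 fold changes in WD were 0.57 (SE 1.78) within batch 1 and 0.69 (SE 1.12) against batch 2, and neither passed. Without controls 1 and 4 the former became -0.43.

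Cd248 (chr19:5068078-5070639, plus strand) encodes endosialin, a surface protein of stromal and perivascular cells. It had 22, 42, 223 and 0 counts in the batch 1 controls. WD libraries had 204, 149, 106, 315 and 349 counts. The batch 2 controls had 199, 76, 136, 326 and 97 counts. The batch 1 controls were low except for control 3, which lay above 3 of the 5 WD libraries. Cd248 had the largest estimate of the 10 genes within batch 1, a log2 fold change of 1.59 (SE 1.24), which did not pass the test, and the value depended on the controls used. It was 0.74 without controls 1 and 4, and with each library left out in turn it ranged from 1.16 (without control 4) to 3.21 (without control 3). Against batch 2 the value was 0.47 (SE 0.45), and batch 2 controls exceeded batch 1 controls by 1.10 (SE 1.23).

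Cd34 (chr1:194938821-194961292, plus strand), a sialomucin of progenitor and endothelial cells, was the most abundant and among the most even. Batch 1 controls had 2079, 1666, 1705 and 1078 counts. WD libraries had 1904, 1906, 1657, 1630 and 2346 counts. Batch 2 controls had 2251, 2446, 1706, 2566 and 1041 counts. The groups lay over each other, with mean log2 levels of 7.11 ± 0.58 (n = 4), 7.26 ± 0.34 (n = 5) and 7.32 ± 0.46 (n = 5). Log2 fold changes in WD were 0.10 (SE 0.34) within batch 1 and -0.07 (SE 0.24) against batch 2, with a 95% interval of -0.58 to 0.43 for the latter.

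Ly6a and Ly6c1 belong to a cluster of genes for small GPI-anchored surface proteins on chromosome 15, at chr15:74994877-74998031 and chr15:75044018-75048837, both on the minus strand. The authors counted unique and multiple alignments, so reads that align to several family members can be counted at each. Ly6c1 and its neighbour Ly6c2, known from inflammatory monocytes, are the pair for which this matters. Their coding sequences in GENCODE transcripts of GRCm38 are both 396 bases long and differ at 9 positions (97.7% identical), whereas Ly6c1 and Ly6a are 82.0% identical over 405 aligned columns. Their last 120 coding bases, toward the end that QuantSeq reads, are shown on the coding strand with capitals at the 2 positions that differ.
Ly6c1: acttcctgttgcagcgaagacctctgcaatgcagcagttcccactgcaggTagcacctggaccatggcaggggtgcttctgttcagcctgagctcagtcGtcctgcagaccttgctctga
Ly6c2: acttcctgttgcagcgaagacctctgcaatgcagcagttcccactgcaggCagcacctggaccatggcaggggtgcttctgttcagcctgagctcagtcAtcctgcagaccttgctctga
Of the 1535 distinct 75-base windows in the last 400 bases of Ly6c1 transcripts, 259 also occur in Ly6c2 and 24 in Ly6a, together 18.44%. For Ly6a the shared part was 0.15%. Windows were pooled over the transcripts of each gene, which gave 1535 for Ly6c1 and 326 for Cd34. The shares are therefore not those of a single transcript end. Only exact matches were counted, so windows with a mismatch, as at the 2 positions above, are not in them. The share of reads counted at both Ly6c1 and Ly6c2 was not tested. For Pi16, 12.87% of windows also occur in the antisense transcript AC162182.1, and for Pdgfra 2.92% in the overlapping Gm42803. The sources used here do not state whether counting used the strand. Reads from sequence shared with an antisense partner therefore cannot be told apart for Pdgfra and Pi16. Dpp4 and Cd34 also overlap an antisense gene, but no window in their last 400 bases was shared. For the other genes no window was shared.

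Ly6a, the Sca-1 antigen by which progenitors are commonly sorted, had 854, 2422, 1853 and 1244 counts in the batch 1 controls. In WD there were 1697, 976, 1546, 1144 and 1179 counts. In the batch 2 controls there were 1354, 876, 1052, 1829 and 685 counts. The WD libraries were the most even, with a highest CPM 1.32 times the lowest, and controls 2 and 3 stood above all of them. The log2 fold change was -0.36 (SE 0.31) within batch 1 and 0.17 (SE 0.21) against batch 2. Without controls 1 and 4 the value within batch 1 was -0.76, with an unadjusted p of 0.0146 and an adjusted p of 0.316 by edgeR, from 2 controls against 5 WD libraries. On the same leave-out, batch 2 controls differed from batch 1 controls by -0.93 (adjusted p of 0.166 by edgeR).

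Ly6c1 had 324, 1924, 1865 and 654 counts in the batch 1 controls. WD libraries had 1681, 864, 1073, 1088 and 995 counts. Batch 2 controls had 1213, 896, 1207, 2516 and 966 counts. Controls 1 and 4 were the lowest of the 14 libraries on the log2 scale, at 5.12 and 5.64, and controls 2 and 3 were exceeded only by control 8. The log2 fold change in WD was -0.12 (SE 0.44) within batch 1 and -0.27 (SE 0.24) against batch 2. Without controls 1 and 4 the former was -0.78, with an unadjusted p of 0.0142 and an adjusted p of 0.314 by edgeR. Ly6c2 had 2 to 80 counts in the batch 1 controls, 32 to 307 in WD and 53 to 174 in the batch 2 controls, so its counts were 0.006 to 0.282 of those of Ly6c1. Its log2 fold change in WD was 2.18 (SE 1.28) within batch 1 and 0.37 (SE 0.61) against batch 2, and neither passed. Of the 12 measured relatives of the Ly6 and DPP4 families, 8 were tested within batch 1 and 7 against batch 2, and 0 passed.

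Because Cd34, Ly6a and Ly6c1 are shared with endothelium, endothelial markers were read beside them. In control 4, where 21.01% of otherwise detected genes were at 0, 4 of the 8 endothelial markers had no count: Pecam1, Cdh5, Tie1 and Egfl7. With the other markers, the sum in control 4 was still 124 CPM, beside 106 CPM in WD 4 and 125 CPM in control 7. Cd34, Ly6a and Ly6c1 had 1078, 1244 and 654 counts in control 4. The 8 markers summed to 124 to 458 CPM in batch 1 controls, 106 to 265 CPM in WD and 125 to 291 CPM in batch 2 controls. None of the 8 passed the test in either diet comparison, and their part in the levels of the progenitor genes was not tested.

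Zfp423 (chr8:87661810-87959595, minus strand) encodes the zinc-finger transcription factor that commits stromal cells to the preadipocyte fate. It had 145, 401, 203 and 476 counts in the batch 1 controls. WD libraries had 484, 433, 297, 482 and 648 counts. The batch 2 controls had 710, 374, 256, 481 and 228 counts. Among the WD libraries, 3 of 5 lay above every batch 1 control on the log2 scale. The log2 fold change was 0.63 (SE 0.47, unadjusted p of 0.208 by edgeR) within batch 1 and 0.23 (SE 0.32) against batch 2. Unlike Pi16, Dpp4, Cd248 and Fap, Zfp423 was not at 0 in control 4, where it was the highest of the batch 1 controls. Among 8 partners of Zfp423, including Ebf2, the BMP ligands and the Smads, 0 passed in either diet comparison. Bmp2, the partner with the lowest p within batch 1, had 0 to 79 counts in batch 1 controls, 28 to 263 in WD and 48 to 136 in batch 2 controls, with log2 fold changes of 2.18 (SE 1.74) and 0.20 (SE 0.63).

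Other genes of the stromal lineage were examined by lists. Within batch 1 none of them passed the test. Of 7 interstitial progenitor genes tested, 6 had positive values (median log2 fold change 1.04), as did 6292 of all 12157 genes tested. Among 6 committed preadipocyte genes the median was 0.38. This list includes Pparg, Cd36 and Lpl. Its 7 genes summed to 1296 CPM in control 1, the library low in adipocyte markers, and to 9895 to 10243 CPM in the other batch 1 controls. The part of adipocytes in this list was not tested. Among 6 genes of the Areg cells, a stromal population that restrains adipogenesis, the median was -0.005. The 9 pan-stromal genes had a median of 0.35 and the 8 tested myofibroblast genes -0.37. The median over all genes was 0.03.

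Against batch 2, 5 of 9 pan-stromal genes passed, 4 higher and 1 lower in WD, beside 3.93% and 2.48% of all genes. Col1a1, a chain of type I collagen, rose from 302 to 1373 counts in the batch 2 controls to 2173 to 2782 in WD, a log2 fold change of 1.47 (SE 0.27, adjusted p of 0.00305 by edgeR). Col3a1, of type III collagen, rose by 1.26 (SE 0.25, adjusted p of 0.00461 by edgeR). Gsn, which encodes the actin-severing protein gelsolin, fell by 0.96 on the log2 scale (SE 0.19, adjusted p of 0.0047 by edgeR). The remaining calls, Serpinf1 (1.38) and Lum (1.16), were chosen after their values were seen. Within batch 1 the same genes had log2 fold changes of 0.17, 0.84, -0.12, 0.85 and 1.06, in the order given, with no call. These values depended on the controls that stood apart. They were 1.01, 1.36, -0.72, 1.56 and 1.66 without controls 1 and 4, with unadjusted p from 0.00145 to 0.0266 and adjusted p from 0.102 to 0.414 by edgeR, still with no call. Without control 4 alone, Col1a1 was at 1.11 and Col3a1 at 1.76, and without control 1 alone they were at -0.079 and 0.49. Between the control batches, batch 2 against batch 1, Col1a1, Col3a1, Gsn, Serpinf1 and Lum were at -1.31, -0.43, 0.83, -0.55 and -0.12, with no call.

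Of the 8 tested myofibroblast genes, Lox and Postn passed against batch 2. Lox, the enzyme that crosslinks collagen, had 1405 to 2679 counts in WD and 315 to 695 in the batch 2 controls, a log2 fold change of 2.06 (SE 0.27, adjusted p of 0.000182 by edgeR). The batch 1 controls, with 738 to 2448 counts, were also entirely above the batch 2 controls, and within batch 1 the value was 0.25 (SE 0.37). Postn, the matrix protein periostin, rose by 1.12 (SE 0.29, adjusted p of 0.0265 by edgeR) against batch 2, with 0.36 within batch 1. Pcolce2, an enhancer of collagen processing, was the 1 call among 9 interstitial progenitor genes (0.94, SE 0.27, adjusted p of 0.047 by edgeR). Col15a1, a collagen of basement membrane zones, was the 1 call among 6 committed preadipocyte genes and fell by 1.06 on the log2 scale (SE 0.27, adjusted p of 0.0231 by edgeR). Within batch 1 the values of Pcolce2 and Col15a1 were 1.04 and 0.46, with no call. Without controls 1 and 4 they were 2.23 (adjusted p of 0.0363 by edgeR) and 1.08 (adjusted p of 0.345 by edgeR). That leave-out set 2 controls against 5 WD libraries and was added after the data were seen. Among the 6 Areg genes 0 passed. Meox2, the gene of this list with the lowest p within batch 1, had 0 to 17 counts in batch 1 controls, 0 to 219 in WD and 2 to 114 in batch 2 controls.

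These calls depended on how the spread was estimated. When the variance was shared by all 3 groups, so that the uneven batch 1 controls entered it, 0 pan-stromal, 1 myofibroblast, 0 interstitial and 0 committed preadipocyte genes passed, with Lox as the 1 left. With each library left out in turn, Col1a1, Col3a1, Gsn, Serpinf1 and Lox passed in 10 of 10 fits. Col15a1 passed in 7 (lost without WD 1, WD 3 or control 7), Postn in 4, and Lum and Pcolce2 in 3 of the 10, with an adjusted p of up to 0.13 by edgeR. Whether the lists differ from the 10 progenitor genes was not tested. Markers of other cells moved in the same comparison. All 8 macrophage markers, among them Cd68 and Trem2, passed as higher in WD (4 of 8 with the shared variance), and summed to 1505 to 2361 CPM in WD against 292 to 615 CPM in the batch 2 controls, with none of the 8 at 0. Of 8 adipocyte markers 6 passed as lower and Lep as higher (0 of 8 with the shared variance), and their sum was 23151 to 36875 CPM in WD against 42013 to 50092 CPM, with none at 0. Within batch 1, 0 of either list passed by edgeR. There the macrophage markers were positive in 8 of 8 (median log2 fold change 1.61, 5 with an unadjusted p under 0.05), and the adipocyte markers were positive in 4 and negative in 4 (median 0.02, 1 with an unadjusted p under 0.05). Between the control batches, all 8 adipocyte markers had higher estimates in batch 2 (median 0.88) and all 8 macrophage markers lower ones (median -0.65), with 0 called. Of the 8 mural and 8 mesothelial markers, 0 passed in either diet comparison. The part of these markers in the stromal results was not tested.

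**Figure D4:**
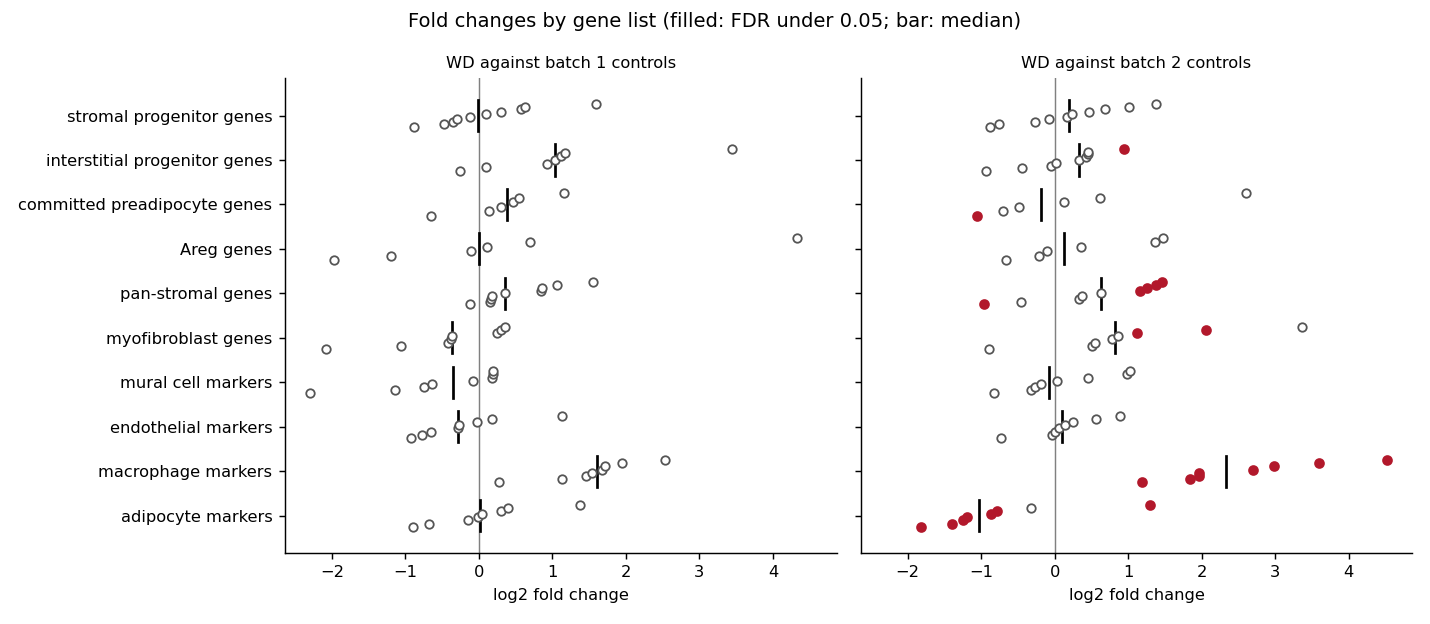
Log2 fold changes of the 10 progenitor genes and of 9 other lists in both diet comparisons, with 1 point per tested gene, filled where edgeR's FDR is under 0.05, and a bar at each median. No point is filled in the comparison within batch 1; against batch 2 the filled points are in the pan-stromal, myofibroblast, interstitial, committed preadipocyte, macrophage and adipocyte lists.

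Finally, the genes whose pattern over the 14 libraries was most like that of Pdgfra and of Pi16 were sought among 7979 genes with a mean of at least 10 CPM, by the root mean square difference of centred log2 levels. For Pdgfra, which itself varied by 1.13 around its mean, these were Ly6e (0.55), Ifitm3 (0.58) and Nfkbil1 (0.62). For Pi16, which varied by 1.24, they were Nat6 (0.40), Rhbdl1 (0.42) and Slc27a4 (0.46). None of these is a member of the 10. Control 4 was the lowest library for all 6, with 4 counts of Nat6 and none of Nfkbil1, Rhbdl1 or Slc27a4, so that the likeness rests in part on the library in which 21.01% of otherwise detected genes were at 0.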

How the data were processed

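RNA of epididymal fat from 14 libraries was sequenced with the QuantSeq 3′ kit as single-end 75-base reads. Alignment by the authors used Bowtie2. Their counts per gene, made with Bedtools and deposited without normalization, include reads that aligned more than once. They also deposited log2 values of TMM-normalized CPM, which log2(CPM + 1) computed from the counts matched within 0.0507. The submitters' processing notes name mm10. Tool versions and molecular identifiers are not given in the sources used here. The floor of 3 counts covers counting error only, whereas the intervals of the fold changes also hold the spread between libraries. Of the 23282 genes, 5794 had no count. The labels number the samples of each group, and p-values measure the spread between these samples. The 10 genes and all lists were chosen with earlier results of these data known.

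Counts were tested with edgeR 4.0.16 (quasi-likelihood, TMM, filterByExpr, two-sided, Benjamini-Hochberg over all genes tested, FDR under 0.05) in 3 comparisons without covariates, using R 4.3.3. Alternatives were DESeq2 1.42.0, limma-voom (limma 3.58.1), upper-quartile factors, library totals, no filter, a variance shared by the 3 groups, all 9 controls together, the replicate number as a block and each library left out. Leaving out controls 1 and 4 together was added after the data were seen. In a test on simulated counts, 200 genes were given a log2 change of 3. Of these, edgeR recovered 73 (1 wrong call) for WD against batch 1 controls, 172 (10 wrong) for WD against batch 2 controls and 92 (5 wrong) between control batches. That change exceeded every main estimate of the 10 genes, so these numbers do not show how often changes of their size would be found. Named genes were all 10 members, the 4 PDGF ligands, Ly6c2, up to 3 genes of each other list with the lowest p among calls against batch 2, or otherwise the gene with the lowest p within batch 1, and the 3 genes most like Pdgfra and most like Pi16. Marker lists for mural, endothelial, mesothelial, T cell, macrophage, adipocyte and epididymis cells were described by counts and summed CPM. Sequences were taken from GENCODE transcripts of GRCm38, with Biopython 1.88; plots were drawn with matplotlib 3.10.9.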

Additional observations from a re-analysis of the deposited data

Results flagged for a closer look

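Across the 10 genes and 3 groups, 30 sets of 4 or 5 libraries were examined for a value far from the others, of which chance gives about 1.5. In 1 of them the highest library stood apart. Ly6c1 in control 8 reached 7.599 on the log2 scale (2516 counts), whereas the other batch 2 controls lay between 6.448 and 6.618, so that the gap to the nearest library made up 0.852 of the range of the group. Without control 8 the log2 fold change of Ly6c1 in WD against the batch 2 controls was 0.02, in place of -0.27, and was not called by edgeR's quasi-likelihood test in either case.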

How the results depend on the processing

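No alternative called any of the 10 genes. Their fold changes kept their direction in 204 of 220 alternatives and in 255 of 280 fits without a library. Within batch 1, limma-voom gave opposite signs for Pdgfra (0.43), Dpp4 (0.28), Ly6c1 (0.16) and Gsn (0.13). With all 9 controls Pdgfra was 0.17, Pdgfrb 0.38, Pi16 -0.38 and Col15a1 -0.58. Without controls 1 and 4 Pdgfrb was 0.47, Fap -0.43 and Pdgfc -0.35. Against batch 2, limma-voom gave -0.70 for Pdgfa, 0.11 for Pdgfc, -0.64 for Meox2 and -0.28 for Bmp2. Between control batches Dpp4 turned to 0.0062 (library totals), 0.015 (no filter), 1.85 (limma-voom) and 0.00804 (shared variance), Fap to 1.40 (limma-voom) and, without controls 1 and 4, Ly6c1 to -0.52. The cause was not tested.

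Leaving out a library also turned some estimates. Within batch 1 the values ranged from -0.89 to 0.12 for Pdgfra, -0.67 to 0.12 for Pdgfrb, -0.19 to 0.78 for Pi16, -0.12 to 0.39 for Cd34 and -0.40 to 0.19 for Ly6c1. They ranged from -3.02 to 0.32 for Pdgfb, -0.0092 to 0.85 for Pdgfc, -0.079 to 1.11 for Col1a1, -0.42 to 0.14 for Gsn and -0.044 to 0.46 for Lox. Against batch 2 the ranges were -0.20 to 0.084 for Cd34, -0.38 to 0.024 for Ly6c1, -0.059 to 0.45 for Pdgfa, -0.69 to 0.75 for Pdgfb, -0.45 to 0.23 for Pdgfc, -0.15 to 0.61 for Ly6c2, -0.15 to 0.68 for Meox2 and -0.39 to 0.46 for Bmp2. Between control batches they were -0.45 to 0.63 for Dpp4, -0.018 to 0.45 for Cd34, -0.16 to 0.48 for Ly6c1 and -0.55 to 1.44 for Fap.

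Calls over all genes varied more. Within batch 1, where edgeR called 0, DESeq2 called 114, the shared variance 1, all 9 controls 67, the fit without controls 1 and 4 108, and fits without a library 0 to 48, the last without control 4. Against batch 2 the shared variance called 140 and fits without a library 565 to 977. Between control batches DESeq2 called 111, the shared variance 1, the fit without controls 1 and 4 28, and fits without a library 0 to 2. The median over the 10 genes between control batches became -0.49 without controls 1 and 4, and ranged from -0.24 (without control 4) to 0.32 without a library. Within batch 1 that median ranged from -0.13 to 0.14, and against batch 2 from 0.10 to 0.31. Of the genes in the text, Pcolce2 passed within batch 1 without controls 1 and 4, at 2.23.

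The labels give controls and WD libraries of batch 1 the numbers 1 to 4 in common. Deviations of same-numbered libraries correlated at 0.024 to 0.099, and 2 of 4 correlated best with their own number, so the numbers were not taken as pairs. With the replicate block, 0 of the 10 genes and 0 of all genes passed, and Pdgfra (0.18), Ly6c1 (0.20) and Gsn (0.027) changed sign. For the other comparisons no paired analysis was possible because the groups share fewer than 2 numbers.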
